A study of Caenorhabditis elegans with 12 samples.

Results

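The Sra, Srg and solo chemoreceptors are families of nematode G protein-coupled receptors, and 191 of the 713 genes of 14 such families were detected in cells sorted from C. elegans larvae. A gene was counted as detected when its counts summed over 12 libraries reached 50, so the members were chosen by the same counts that are described here. The table held 46726 genes in all. The members held 73685 of the 79644 counts of the 14 families, which is 92.5%. No count was recorded for 202 of the other family genes, and 320 had 1 to 49 counts. Just inside the threshold were srw-71 with 51 counts, srg-6 with 52, and sre-31, srt-67 and srx-18 with 53 each. Just outside it were srsx-26, srw-51 and srx-59, with 49 counts each.

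Chemoreceptor genes of these families encode multi-pass membrane proteins that face the animal's surroundings. Most of those placed so far are made in ciliated sensory neurons, many in the amphid, where receptors are carried into the cilium and act through G proteins and either cyclic nucleotide-gated or TRPV channels. A single neuron class can make many receptors. The families are grouped by sequence into the superfamilies Sra (sra, srab, srb, sre), Srg (srg, srt, sru, srv, srx, srxa) and Str, with srw, srz, srbc and srsx standing alone as solo families.

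The cells came from synchronised larvae of the L3 and L4 stages, grown from L1 arrest in liquid culture on E. coli HB101 for 36 to 42 h at 20 °C. All animals carried F16F9.3pro::dsRed, a red reporter driven by a promoter active in the amphid sheath (AMsh) glia, which wrap the endings of amphid neurons. The wild type background was strain OS4079, and the che-2(e1033) background, mutant in a gene of intraflagellar transport needed to build cilia, was strain OS11549. Whole larvae were dissociated and sorted into dsRed-positive cells (AMsh) and dsRed-negative cells of the same size and granularity gates (non-AMsh), which hold all other cell types together. Each genotype thus gave an AMsh and a non-AMsh group, 4 groups of 3 libraries in all, and the codes E30, E35 and E36 mark the libraries within a group. The 2 fractions with the same code and genotype are taken as 1 culture, since they were sorted together, and each group pools many animals. The comparisons ask which receptors differ between the fractions and which differ between the wild type and che-2(e1033) strains. The level of a gene is given in CPM, the count relative to the library size after TMM scaling (trimmed mean of M values). Groups are given as mean ± SD of 3 libraries. In pooled cells, fewer cells of a type and less RNA per cell cannot be told apart.

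The libraries held 15420762 to 26019499 counts. A count of 0 allows up to 0.115 to 0.195 CPM of the raw library total, before TMM scaling (3 counts of the total, covering counting error only). The wild type AMsh library E30 held counts for 14101 genes and the che-2 AMsh library E35 for 15711, against 17555 to 19298 in the other 10. F16F9.3, whose promoter drove the reporter, had 73.5 to 465 CPM in the 6 AMsh libraries and 4.40 to 9.3 CPM in the 6 non-AMsh libraries. Summed over 11 AMsh marker genes, levels were 655 to 3839 CPM in AMsh and 181 to 337 CPM in non-AMsh libraries. The AMsh fraction was not free of neuronal RNA: all 18 pan-neuronal marker genes had counts in every library, with summed levels of 1127 to 2041 CPM in AMsh and 960 to 2132 CPM in non-AMsh libraries. The gene che-2 itself was low, at 0 to 3.77 CPM in wild type and 0.281 to 12.5 CPM in che-2 libraries. Its counts did not separate the genotypes, and the kind of lesion in e1033 is not given in the sources used here.

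Detection differed between families. In the Sra superfamily 51 of 124 genes were members (41.1%), in Srg 82 of 309 (26.5%) and among the solo families 58 of 280 (20.7%). The share was highest in srb, with 7 of 12 genes, followed by srsx with 16 of 37, sre with 23 of 54 and sra with 14 of 35. The large families srx and srw gave 29 members (28.7% of srx genes) and 18 of 109 genes, and srxa gave 1 of 17. Counts were held mostly by Srg genes, with 45220 of the members' 73685 counts, against 19120 for the solo families and 9345 for Sra. The filter on low counts that preceded the tests (filterByExpr) kept 126 of the 191 members, and 65 had no test. The kept genes numbered 33 in Sra, 57 in Srg and 36 among the solo families.

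**Figure D1:**
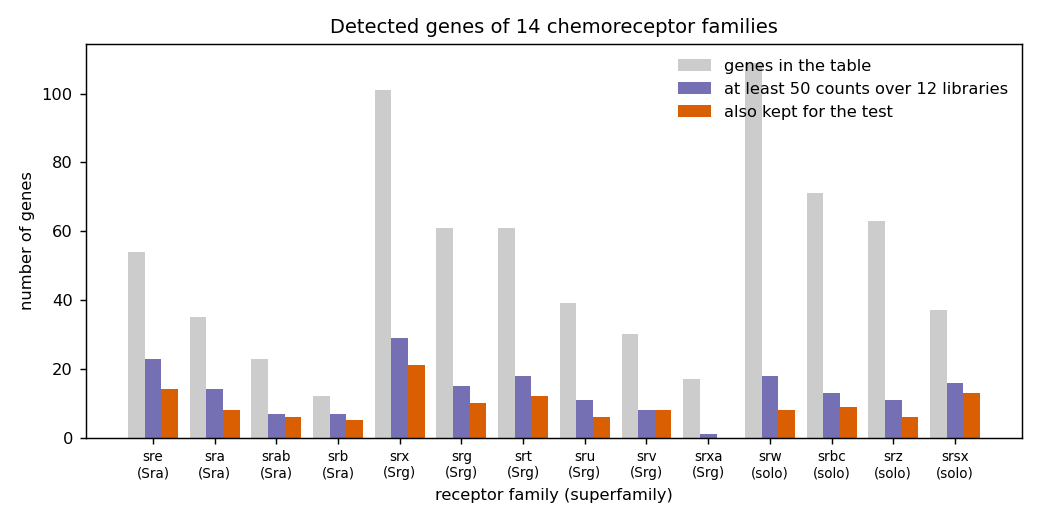
Number of genes (vertical axis) in each of 14 chemoreceptor families (horizontal axis): grey bars count genes in the table, purple bars those with at least 50 counts over 12 libraries, orange bars those also kept for the test. The srx family had the most detected genes, 29, and srxa had 1 of 17.

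Most members were rare. The median member had 120 counts over the 12 libraries, 80 members had fewer than 100, and 9 had at least 1000. The gene srg-64 alone held 23% of all member counts, and the 6 genes with the most counts held 51.7%. Per kb of summed exon length, the mean level over the 12 libraries was 66.5 CPM per kb for srg-64, 15.0 for sru-40, 13.5 for srv-1, 11.1 for srw-85 and 7.95 for srx-68. Next in CPM per kb came srsx-34 at 7.58, srg-31 at 7.04, srx-58 at 6.91, srz-20 at 5.11, srw-86 at 4.84, srx-45 at 2.69 and srw-12 at 2.38. On this length-corrected scale srg-64 stood 4.42-fold above sru-40. In each of the other families the member with the most counts was low: sra-10 in sra, srab-14 in srab, srb-16 in srb, sre-23 in sre, srbc-3 in srbc, srt-45 in srt and srxa-7 in srxa had mean levels of 1.12 to 2.31 CPM per kb.

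**Figure D2:**
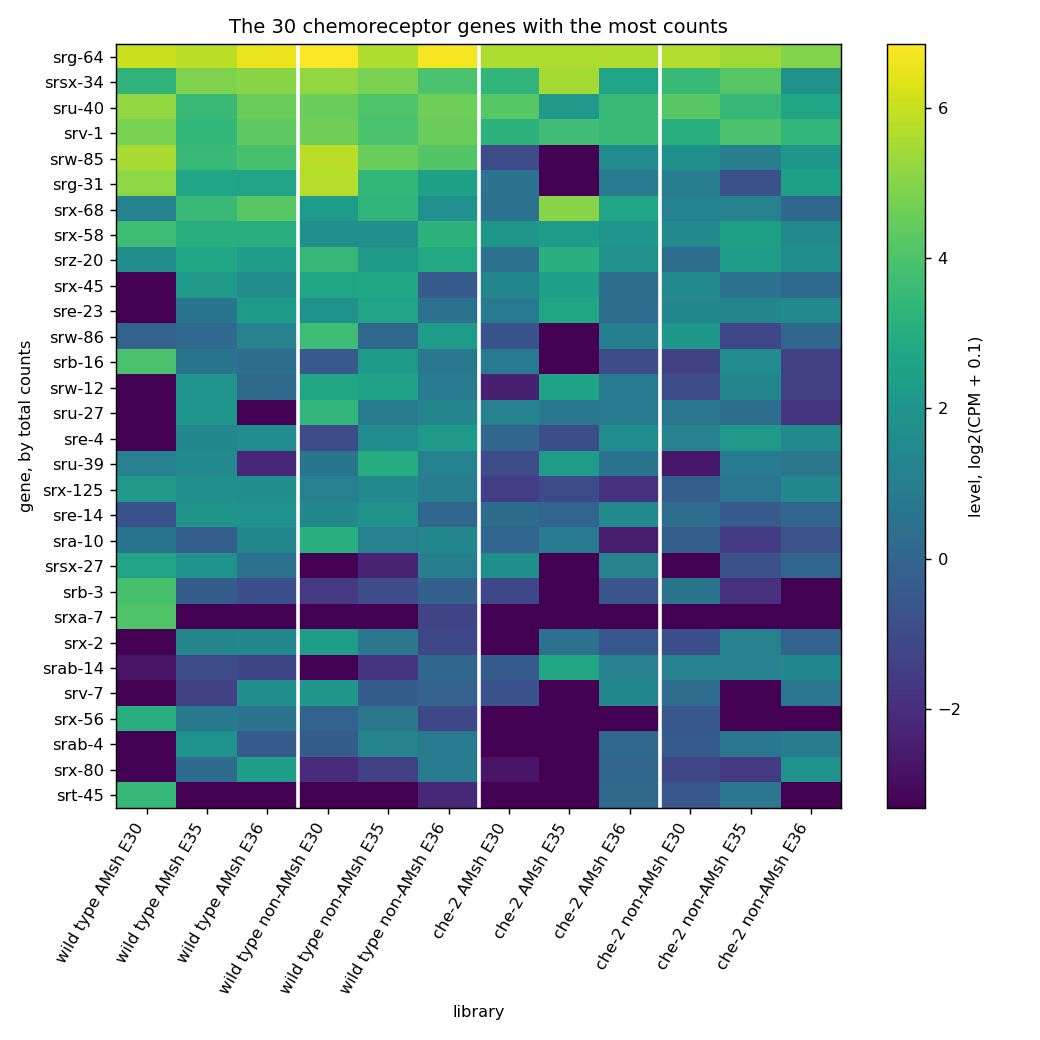
Level of the 30 members with the most counts (rows, in order of counts) in each of the 12 libraries (columns, white lines between groups), as log2(CPM + 0.1) by colour. The gene srg-64 is high in every library, and srxa-7 is bright in 1 library. The genes srw-85 and srg-31 are darker in che-2 than in wild type columns, for srg-31 only slightly in non-AMsh E36.

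The gene srg-64 (WBGene00005221, chromosome X, 15736844 to 15740626 on the minus strand of WBcel235) is a receptor gene of the srg family whose ligand is not named in the sources used here. Under codes E30, E35 and E36 it had 66.2, 55.6 and 95 CPM in wild type AMsh and 116, 50.5 and 103.6 CPM in wild type non-AMsh. In che-2 it had 48.8, 48.3 and 49.9 CPM in AMsh and 51.2, 42.8 and 31 CPM in non-AMsh. The fractions overlapped in each genotype, and its 5 lowest values were all in che-2 libraries. The che-2 libraries were all below those of wild type in AMsh, while in non-AMsh the groups overlapped at 51.2 and 50.5 CPM. The change from wild type to che-2 was −1.11 ± 0.37 (log2, SE) in non-AMsh (edgeR quasi-likelihood test, adjusted p = 0.279) and −0.56 ± 0.37 in AMsh (adjusted p = 0.559). DESeq2 called the non-AMsh change, with an adjusted p of 0.0475. No exon of another gene overlapped it, and its nearest protein-coding neighbour was lin-15A, 1479 bases away on the other strand.

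The solo gene srsx-34 on chromosome V had 9.67, 29.9 and 32.7 CPM in wild type AMsh and 36.6, 28.2 and 15.1 CPM in wild type non-AMsh. In che-2 it had 10.3, 44.2 and 5.99 CPM in AMsh and 11.6, 18.3 and 3.56 CPM in non-AMsh. Its groups overlapped in every comparison, and in che-2 the E35 culture was highest in both fractions. The gene sru-40 (chromosome V) had 36.9, 11.9 and 23.9 CPM in wild type AMsh, 22.8, 16.6 and 24.0 in wild type non-AMsh, 18.6, 4.33 and 11.5 in che-2 AMsh and 18.3, 10.9 and 6.19 in che-2 non-AMsh. The gene srv-1 (chromosome III) had 28.3, 10.5 and 19.9 CPM in wild type AMsh, 24.8, 15.0 and 23 in wild type non-AMsh, 9.41, 12.8 and 11.4 in che-2 AMsh and 8.52, 15.3 and 10.6 in che-2 non-AMsh. For sru-40 and srv-1 the means were lower in che-2 in both fractions, by 1.79-fold to 2.11-fold for sru-40 and by 1.75-fold to 1.82-fold for srv-1, with overlapping libraries. An exon of srv-1 overlaps the opposite-strand gene zak-1. Since the strand setting of the counting is not given, reads in the shared bases cannot be assigned to either gene.

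Among the next most abundant members, srx-58 (chromosome V) had 13, 8.20 and 8.41 CPM in wild type AMsh, 3.30, 3.39 and 9.41 in wild type non-AMsh, 4.10, 4.78 and 3.94 in che-2 AMsh and 2.72, 5.42 and 2.72 in che-2 non-AMsh. Its AMsh genotypes did not overlap (log2 change −1.21 ± 0.57, SE, adjusted p = 0.405 by edgeR). The gene srz-20 (chromosome IV) ran from 3.12 to 11 CPM in wild type and from 1.16 to 8.77 CPM in che-2, with its highest che-2 values in the E35 culture. The gene srw-86, which lies near srw-85 on chromosome V, had 0.847, 1.07 and 2.08 CPM in wild type AMsh and 13, 1.04 and 4.72 CPM in wild type non-AMsh, so that its highest wild type library stood 2.75-fold above the next. In che-2, srw-86 had 0.490, 0 and 2.02 CPM in AMsh and 4.12, 0.354 and 0.938 CPM in non-AMsh. The genes srx-45 and sre-23 had no count in wild type AMsh E30, although they had counts in the other 11 libraries. Elsewhere srx-45 ran from 0.651 to 6.55 CPM and sre-23 from 1.19 to 6.24 CPM, with no group apart from the rest. The gene srw-12 had 0, 3.87 and 1.04 CPM in wild type AMsh, 6.56, 5.65 and 1.71 in wild type non-AMsh, 0.0892, 5.85 and 1.73 in che-2 AMsh and 0.406, 2.48 and 0.281 in che-2 non-AMsh, and its groups overlapped in every comparison.

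Summed over all members, mean levels were lower in che-2 than in wild type in both fractions, with overlapping libraries in AMsh. In the order E30, E35 and E36 the sum was 436, 278 and 350 CPM in wild type AMsh and 501, 290 and 294 CPM in wild type non-AMsh. It was 155, 358 and 190 CPM in che-2 AMsh and 160, 195 and 133 CPM in che-2 non-AMsh. The non-AMsh genotypes did not overlap, at 361 ± 121 and 163 ± 31.2 CPM, while the AMsh genotypes did, at 355 ± 78.8 and 234 ± 108 CPM, through the che-2 library E35. The fractions of a genotype overlapped. Without srg-64, srw-85 and srg-31 the sums were 242 ± 42.3 and 216 ± 55.3 CPM in wild type AMsh and non-AMsh, and 183 ± 111 and 115 ± 30.6 CPM in che-2, and the non-AMsh genotypes still did not overlap. Without the 9 members with at least 1000 counts they did overlap, at 85.5 to 173 CPM in wild type and 59.0 to 92.8 CPM in che-2. No test was made of these sums, because the members were chosen on the same counts, and the wild type libraries held 148028363 counts in all, against 115768353 for che-2. Of the 191 members, 67 reached 50 counts in the wild type libraries and not in those of che-2, 40 the reverse, 62 reached it in both and 22 in neither.

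By superfamily, summed Srg levels were 222 ± 63.6 CPM in wild type AMsh, 220 ± 74.5 in wild type non-AMsh, 135 ± 36.6 in che-2 AMsh and 102 ± 17.4 in che-2 non-AMsh. The solo families had 90.1 ± 9.20, 98.7 ± 42.4, 69.1 ± 57.7 and 33.3 ± 10.5 CPM in the same order. The Sra families had 42.6 ± 8.67, 42.4 ± 13.1, 30.4 ± 14.2 and 27.3 ± 7.01 CPM. Each superfamily thus had its lowest mean in che-2 non-AMsh, and within each genotype its fractions overlapped. In che-2 AMsh the solo sum was 29.1, 135 and 42.9 CPM, so its mean rested on E35. Among single families, srv and sru had che-2 means of 14.4 to 18.2 CPM against 26.4 to 33.6 CPM in wild type, whereas srab had 8.87 ± 7.63 CPM in che-2 AMsh against 3.69 ± 0.962 CPM in wild type AMsh. The srab mean in che-2 AMsh was 4.58 CPM without E35, which had 17.4 CPM.

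**Figure D3:**
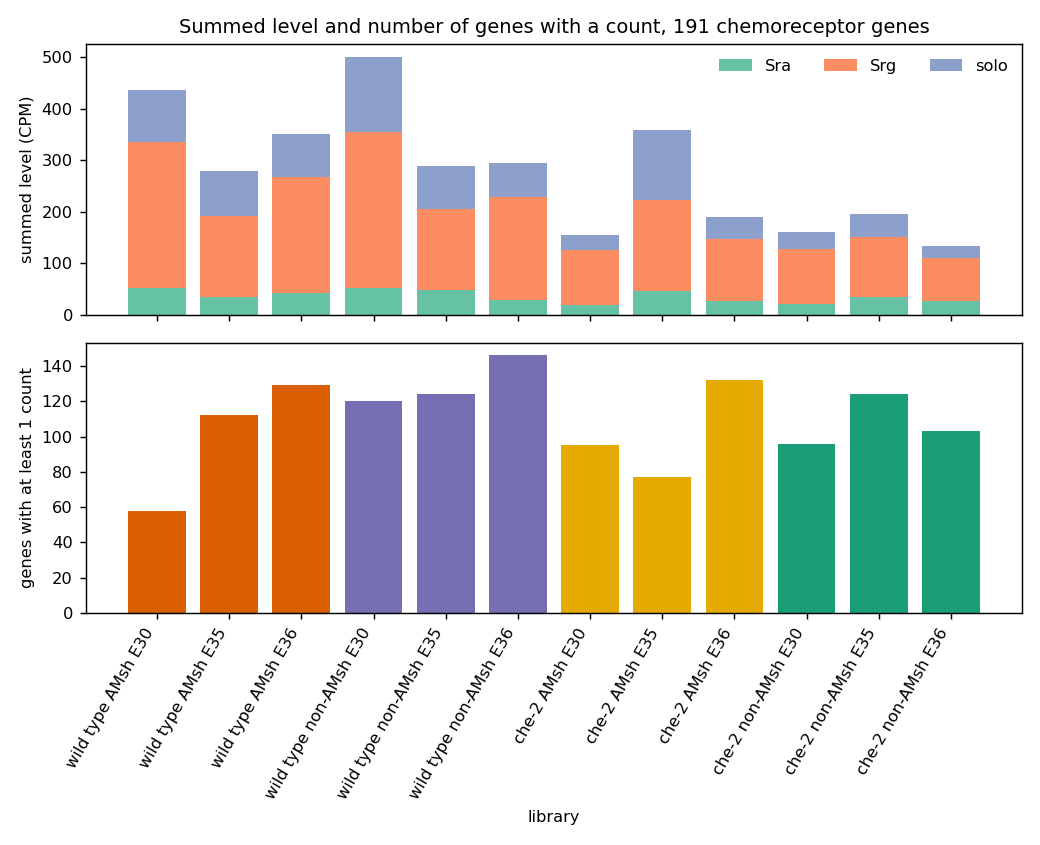
Upper panel: summed level (CPM) of the 191 members in each library, stacked by superfamily. Lower panel: members with at least 1 count, coloured by group. The wild type AMsh library E30 had counts for 58 members and yet a sum of 436 CPM, and the che-2 AMsh library E35 had counts for 77 and a sum of 358 CPM.

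The number of members with a count varied from library to library. In the order E30, E35 and E36 the number was 58, 112 and 129 in wild type AMsh and 120, 124 and 146 in wild type non-AMsh. It was 95, 77 and 132 in che-2 AMsh and 96, 124 and 103 in che-2 non-AMsh. The lowest numbers, 58 and 77, were in the same libraries that held the fewest genes overall. The median member had a count in 7 libraries, 16 members had one in all 12, 44 in at least 10, 31 in at most 3 and 5 in 1. The 16 were srg-64, srsx-34, sru-40, srv-1, srx-68, srx-58, srz-20, sru-39, srx-125, sre-14, sra-10, srg-30, srbc-5, sre-30, srbc-1 and srx-122.

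More than 50% of a member's counts came from a single library for 72 of the 191 members. That library was wild type AMsh E30 for 21 of them and che-2 AMsh E35 for 18. The median share of the highest library was 42.9%. All 307 counts of srt-27 and all 89 of sre-27 were in wild type AMsh E30. All 63 counts of srg-42 were in wild type non-AMsh E30, all 56 of srw-16 in wild type AMsh E35 and all 55 of srw-63 in che-2 AMsh E35. None of these 5 was kept for the test. The srxa member srxa-7 had 382 of its 390 counts in wild type AMsh E30, and srt-45 had 241 of 309 there. Without the wild type AMsh library E30 and the che-2 AMsh library E35, 163 of the 191 members would still have reached 50 counts. The part of depth and amplification in this unevenness was not tested.

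**Figure D4:**
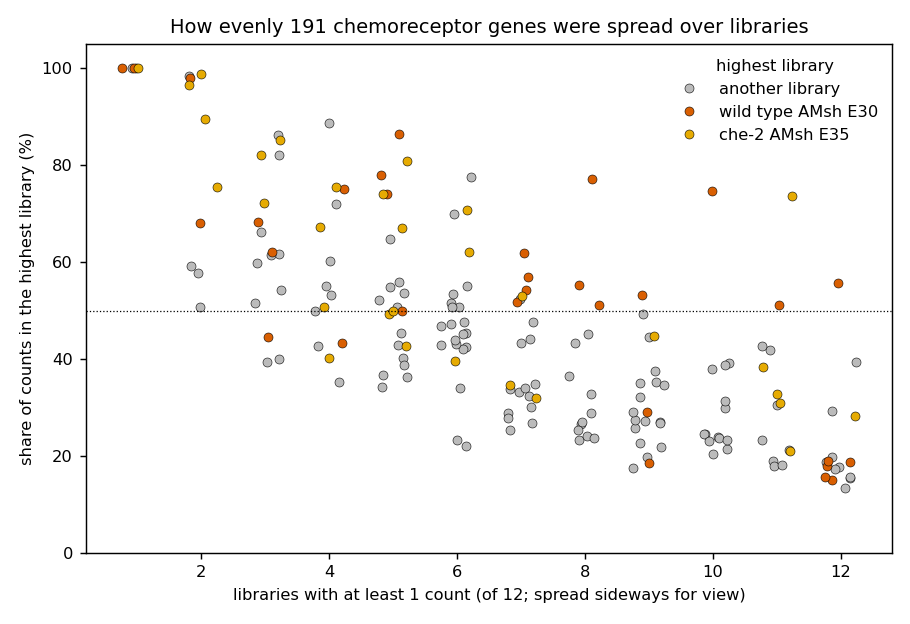
Share of a member's counts in its highest library (vertical axis, %) against the number of libraries with at least 1 count (horizontal axis), 1 point per member. Orange and yellow points have their highest library in wild type AMsh E30 or che-2 AMsh E35. The dotted line is at 50%, and 72 members lie above it.

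Between the fractions of wild type, no member passed edgeR's test. Of the 126 members tested, edgeR called 0 at an adjusted p under 0.05, against 0.437% of all 16690 genes tested, and DESeq2, run on the same counts, called 5 of the 165 members it gave an adjusted p, against 0.992% of all genes. At an unadjusted p under 0.05 there were 10 members, against 3.81% of all genes. The fractions did not overlap for 10 members, against 8.65% of all genes. Of these, srx-125, srt-64 and srb-18 were higher in AMsh (3 members, against 3.74% of all genes), and srg-48, srg-51, srg-56, srx-117, sre-3, srt-28 and srab-9 were lower (7 members, against 4.91%). The median change over the tested members was 0.00 on the log2 scale and −0.10 over all genes. Of the 11 AMsh markers, 5 were called in the same fit, all 5 higher in AMsh.

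The smallest p between the wild type fractions belonged to sre-3, a member of the sre family on chromosome II. It had 0 counts in each wild type AMsh library and 7, 33 and 8 counts in non-AMsh, where its level was at least 16.5-fold higher (3 counts over the group in place of 0; adjusted p = 0.522). The srt family gene srt-28 on chromosome V had 0 counts in wild type AMsh and 37, 12 and 13 in non-AMsh, at least 21.3-fold higher (adjusted p = 0.596). The gene srg-51 had 0, 1 and 0 counts in AMsh and 26, 30 and 12 in non-AMsh, a ratio of 70.2 with a 95% exact counting interval of 12.2 to 2815 (adjusted p = 0.693). Exons of srg-51 overlap 3 piRNA genes on the same strand. Over the 12 libraries srg-51 had its most counts in che-2 AMsh E30, with 33 of 145. In wild type, sre-3, srt-28 and srg-51 were thus seen mainly in the non-AMsh fraction, at levels of no more than 1.63 CPM. None passed edgeR's test. DESeq2 called all of them between the wild type fractions, with adjusted p values of 0.0271 for sre-3, 0.0237 for srt-28 and 0.0467 for srg-51.

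Between the fractions of che-2, edgeR again called 0 of 126 members, against 0.593% of all genes, and DESeq2 called 3 of 165, against 1.06%. An unadjusted p under 0.05 was found for 11 members, against 2.98% of all genes. The fractions did not overlap for 7 members, against 8.08% of all genes. Higher in AMsh were sru-27, srx-111 and srbc-40 (3 members, against 4.52% of all genes), and lower were srx-125, srsx-31, sre-3 and srt-28 (4 members, against 3.56%). The median change was 0.24 for members and 0.00 for all genes. The smallest p belonged to srx-125, with 0.267, 0.394 and 0.181 CPM in che-2 AMsh against 0.754, 1.47 and 2.53 CPM in che-2 non-AMsh (log2 change −2.49 ± 0.78, SE, adjusted p = 0.643 by edgeR). DESeq2 called srx-125 here, with an adjusted p of 0.00641.

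The solo gene srsx-31 was seen only in che-2 non-AMsh among the 12 libraries. It had 19, 24 and 17 counts there, or 1.10, 1.41 and 0.797 CPM, and 0 counts in each of the other 9 libraries. Against che-2 AMsh it was at least 24.4-fold higher (adjusted p = 0.669), and against wild type non-AMsh at least 24.7-fold higher (adjusted p = 0.247). It passed neither test, and leaving out a library in turn did not bring it past the threshold. The counts in che-2 non-AMsh alone made srsx-31 a member and took it past the filter on low counts. Its folds and its restriction to this group thus rest on the counts that selected it, and they describe those counts only.

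The gene srx-68 on chromosome V had the third smallest p in che-2. Its levels were 1.34, 32.6 and 6.46 CPM in che-2 AMsh and 2.15, 2.12 and 0.985 CPM in che-2 non-AMsh. In wild type it had 2.09, 11.7 and 18.4 CPM in AMsh and 4.71, 9.94 and 3.46 CPM in non-AMsh. It was higher in the AMsh fraction in the E35 and E36 cultures of both genotypes and lower in both E30 cultures. The change was 2.94 ± 1.06 (log2, SE) in che-2 (adjusted p = 1.00) and 1.16 without the che-2 AMsh library E35. It lies 2183 bases from srx-67 and within 20 kb of sre-9 and srx-66, all of them members.

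With both genotypes averaged, edgeR called 0 of 126 members (0.875% of all genes) and DESeq2 called 4 of 165 (1.5% of all genes). There were 16 members with an unadjusted p under 0.05, against 4.48% of all genes. The smallest p values belonged to sre-3 (adjusted p = 0.157), srt-28 (adjusted p = 0.287) and srw-103 (adjusted p = 0.602) by edgeR. DESeq2 called sre-3 (adjusted p = 0.00148) and srt-28 (adjusted p = 0.00804) in this comparison. In che-2, sre-3 had 1, 0 and 5 counts in AMsh and 4, 18 and 25 in non-AMsh, and srt-28 had 1, 0 and 24 in AMsh and 18, 38 and 20 in non-AMsh. The gene srw-103 had 0, 0 and 27 counts in wild type AMsh, 0, 127 and 22 in che-2 AMsh, and none in the 6 non-AMsh libraries. Compared within cultures, 0 of the tested members were higher in AMsh in all 6 cultures, against 3.07% of all genes. Lower in AMsh in all 6 were 4 members, srw-85, srt-28, sre-3 and srg-69, against 3.61% of all genes. With the culture as a block, which uses the pairing of the fractions, 0 members passed in each comparison of fractions.

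Between genotypes in the AMsh fraction, edgeR called 0 of 126 members, against 0.461% of all genes, and DESeq2 called 9 of 165, against 5.72%. An unadjusted p under 0.05 was found for 22 members, against 12.8% of all genes. The genotypes did not overlap for 11 members, against 17% of all genes. Lower in che-2 were srg-5, srg-31, srg-64, srw-85, srx-56, srx-58, srx-125 and srt-64 (8 members, against 5.69% of all genes), and higher were srg-48, srx-1 and srab-14 (3 members, against 1885 of 16690 genes). The median change was −0.39 for members and 0.12 for all genes. In the non-AMsh fraction edgeR called 0 of 126 (0.144% of all genes) and DESeq2 called 5 (4.00% of the members it gave an adjusted p, and 4.79% of all genes), with an unadjusted p under 0.05 for 12 members, against 10.3% of all genes. There the genotypes did not overlap for 19 members, against 22.2% of all genes. They were 13 lower and 6 higher in che-2, against 10% and 12.2% of all genes, and the median change was −0.65 for members and −0.01 for all genes. Lower in che-2 non-AMsh were sra-10, srg-5, srg-31, srg-56, sru-27, srw-85, srx-68, srab-12, srsx-29, srsx-19, srbc-40, srsx-40 and srz-97, and higher were srsx-31, srt-47, srt-7, srb-19, srab-14 and srbc-84. These medians cover only the members that passed the filter, and nothing is read from them, since members entered by summed counts.

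Some marker lists of other cell types also stood at different summed levels in the genotypes. The summed level of 24 sperm genes was 126 to 555 CPM in wild type and 435 to 1744 CPM in che-2 libraries. Of these, 19 to 24 had a count in a library, and 1 of 23 tested, comp-1, was called between genotypes in AMsh. The summed level of 9 intestine genes was 6466 to 8483 CPM in wild type and 2363 to 5020 CPM in che-2, with all 9 detected in every library. Their median log2 change was −0.23 in AMsh and −0.19 in non-AMsh. The 25 genes of ciliated sensory neurons, the cells known to make most of these receptors, had 77.5 to 166 CPM in wild type and 159 to 461 CPM in che-2 libraries, with 18 to 25 detected. Of these 25, edgeR called 0 in any of the 8 comparisons, with 0 to 5 at an unadjusted p under 0.05, and DESeq2 called 1 in each of 3 (che-11, che-3 and osm-1). In wild type the sum of this list was higher in every AMsh library than in every non-AMsh library, while in che-2 the fractions overlapped. The median log2 change of its genes from non-AMsh to AMsh was 0.548 in wild type and 0.858 in che-2. Between genotypes the sperm sums overlapped in non-AMsh and not in AMsh. Those of ciliated sensory neurons overlapped over both fractions together but not within either. Sums of the pan-neuronal, germ line, body muscle, hypodermis, and coelomocyte and excretory cell lists overlapped between the genotypes in each fraction. The part of the differing sums in the receptor levels was not tested.

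The solo gene srw-85 (WBGene00005832, chromosome V, 19429440 to 19431687 on the minus strand) had the largest ratio between genotypes among the 12 members highest in CPM per kb, in both fractions. It had 46.6, 11.9 and 14.8 CPM in wild type AMsh and 55.4, 23.1 and 17.3 CPM in wild type non-AMsh. In che-2 it had 0.401, 0 and 2.89 CPM in AMsh and 3.36, 1.94 and 4.17 CPM in non-AMsh. All 6 wild type libraries were above all 6 of che-2, and the means differed 22.3-fold in AMsh and 10.1-fold in non-AMsh. The log2 change was −4.44 ± 1.16 (SE, adjusted p = 0.139) in AMsh and −3.33 ± 1.10 (adjusted p = 0.276) in non-AMsh by edgeR. With DESeq2 the adjusted p was 0.00105 and 0.0378, and with no filter on low counts edgeR gave 0.0400 in AMsh. Over all alternatives the adjusted p ran from 0.00105 to 0.438 in AMsh and from 0.0378 to 0.822 in non-AMsh. In AMsh the log2 change was −6.90 without the che-2 library E36.

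The gene srg-31 (WBGene00005188, chromosome V, 6950835 to 6953897 on the minus strand) followed the same order. Its levels were 35.1, 6.43 and 5.99 CPM in wild type AMsh, 53.3, 10.6 and 5.58 in wild type non-AMsh, 1.38, 0 and 1.77 in che-2 AMsh and 1.97, 0.472 and 5.49 in che-2 non-AMsh. The genotypes did not overlap in either fraction, although the wild type non-AMsh library E36 at 5.58 CPM lay next to the che-2 library of the same code. In wild type the E30 culture was highest in both fractions, and in che-2 the E35 culture was lowest in both. The log2 change was −3.89 ± 1.37 (SE, adjusted p = 0.258) in AMsh and −3.12 ± 1.32 (adjusted p = 0.422) in non-AMsh by edgeR, and in AMsh DESeq2 gave an adjusted p of 0.0300. Without the wild type non-AMsh library E30 the change in that fraction was −1.60.

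A pair of srx genes had the smallest p values between the genotypes in AMsh. The gene srx-125 (chromosome V, 13367252 to 13369990 on the plus strand) had 4.41, 3.38 and 3.12 CPM in wild type AMsh and 0.267, 0.394 and 0.181 CPM in che-2 AMsh. In non-AMsh it had 2.11, 2.73 and 1.95 CPM in wild type and 0.754, 1.47 and 2.53 CPM in che-2. The AMsh groups stood 13-fold apart in their means with little spread, while the non-AMsh groups overlapped. The log2 change was −3.68 ± 0.81 (SE, adjusted p = 0.0814) in AMsh and −0.51 ± 0.73 (adjusted p = 0.899) in non-AMsh by edgeR, with an adjusted p in AMsh of 2.71e-07 to 0.322 over the alternatives, the lowest from DESeq2. The gene srx-56 had 191, 40 and 34 counts in wild type AMsh and 0 in each che-2 AMsh library, at least 84.8-fold lower (adjusted p = 0.137 by edgeR, 0.000200 by DESeq2). In non-AMsh srx-56 had 19, 33 and 9 counts in wild type and 10, 0 and 0 in che-2. Exons of srg-5 and srg-6 overlap on the same strand, so reads in the bases they share cannot be assigned to either gene. The gene srg-5 had 5.08, 0.371 and 1.83 CPM in wild type AMsh and 0.267, 0 and 0 CPM in che-2 AMsh. In non-AMsh it had 1.37, 0.141 and 0.122 CPM in wild type and no count in che-2, at least 10.0-fold lower. In the opposite direction, srab-14 had 0.0446, 0.412 and 0.333 CPM in wild type AMsh and 0.669, 6.81 and 2.06 CPM in che-2 AMsh. An exon of srab-14, which had 369 counts in all, overlaps the opposite-strand gene spi-1, which had 27842. With the strand setting not given, reads in the bases shared with spi-1 cannot be assigned to either gene. In non-AMsh srab-14 had 0, 0.188 and 0.936 CPM in wild type and 2.15, 2.18 and 2.63 CPM in che-2. None of these changes passed the test by edgeR.

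**Figure D5:**
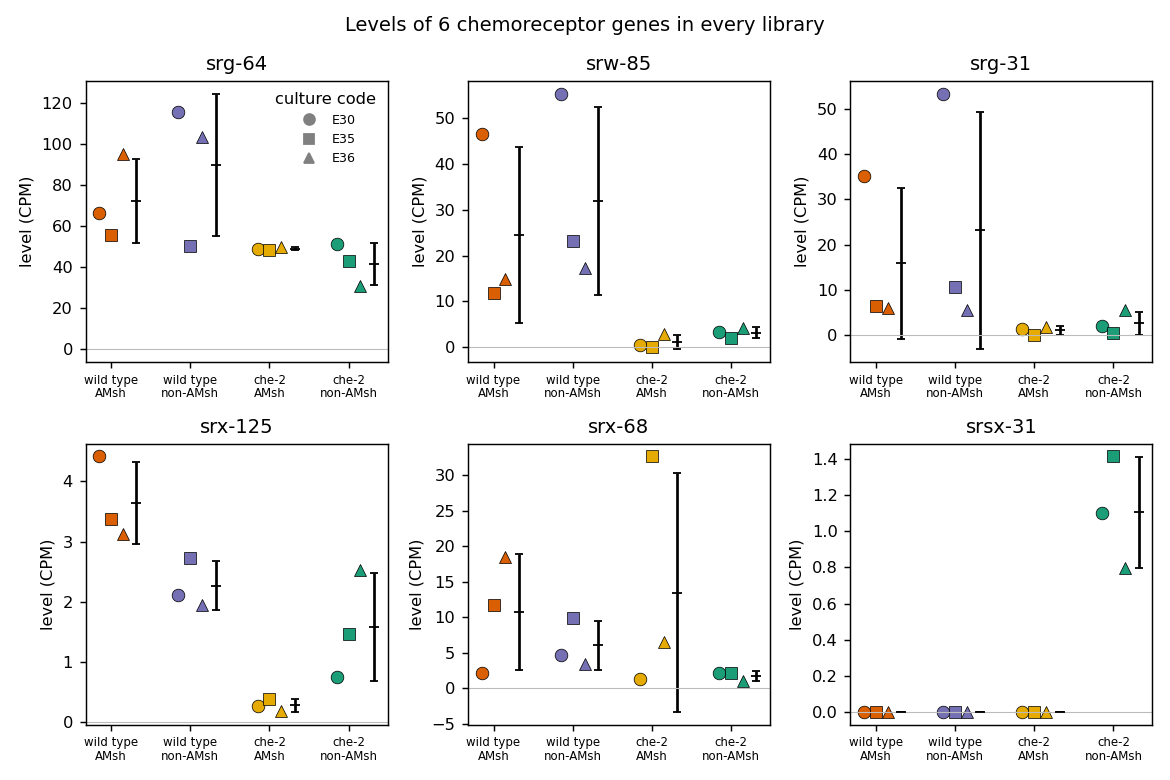
Level (CPM, vertical axes of different scale) of 6 members in every library, by group (horizontal axis and colour), with the code of the culture as the shape of the point and mean ± SD of 3 libraries beside the points. The level of srw-85 is low in all 6 che-2 libraries. The same holds for srg-31 except in che-2 non-AMsh E36, which lies next to wild type libraries. The gene srx-125 is lowest in che-2 AMsh, srx-68 is highest in che-2 AMsh E35, and srsx-31 has counts in che-2 non-AMsh alone.

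The change between genotypes was compared between the fractions in the same fit. edgeR called 0 of 126 members and 0% of all genes, and DESeq2 called 2 of 165 members, srbc-51 and srx-114, against 0.0207% of all genes. An unadjusted p under 0.05 was found for 9 members, against 1.68% of all genes. The smallest p belonged to srg-56, with 0, 0 and 1 counts in wild type AMsh, 16, 52 and 3 in wild type non-AMsh, 0, 70 and 0 in che-2 AMsh and none in che-2 non-AMsh. The gene srx-125 came next, with a difference of −3.17 ± 1.06 (log2, SE, adjusted p = 1.00 in edgeR's test). It was followed by sra-18, with 0, 21 and 18 counts in wild type AMsh, 0, 0 and 4 in wild type non-AMsh, none in che-2 AMsh and 40, 0 and 27 in che-2 non-AMsh. Both srg-56 and sra-18 had counts in some libraries of a group and none in others.

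Cultures of 1 genotype were compared with both fractions as the libraries of a culture, so that this test measures the spread between fractions and not between repeated cultures. Between the wild type cultures edgeR called 0 of 126 members (1.53% of all genes), DESeq2 called 1 of 93 (12% of all genes), and 4 members had an unadjusted p under 0.05, against 17% of all genes. Between the che-2 cultures edgeR called 0 (4.29% of all genes), DESeq2 called 3 of 35 (12.2% of all genes), and 9 members had an unadjusted p under 0.05, against 14.8% of all genes. The smallest p in each genotype belonged to srg-31, with an adjusted p of 0.124 in wild type and 0.0900 in che-2 by edgeR. DESeq2 called srg-31 in both, with adjusted p values of 0.000332 in wild type and 0.000304 in che-2, and called srsx-34 (0.0116) and srw-85 (0.0375) in che-2. In wild type srt-50 and srt-62 came next. The gene srt-50 had 151 and 57 counts in the AMsh and non-AMsh libraries of the wild type E30 culture and none in the other wild type cultures (adjusted p = 0.204). The gene srt-62 had 116, 1 and 39 counts in AMsh and 31, 0 and 13 in non-AMsh of wild type (adjusted p = 0.219), so that both fractions had the same order of cultures. In che-2 srsx-34 (adjusted p = 0.167) and srbc-20 (adjusted p = 0.259) came next, and both had their highest che-2 levels in the E35 culture. For srbc-20 these were 155 counts in AMsh and 10 in non-AMsh.

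Receptors with a known cell or ligand had from 0 to 4200 counts. Of 25 such genes, 12 were members, against 26.8% of all 713 family genes, and 7 were kept for the test. The most counts were held by srv-1 with 4200, srb-16 with 662 and srt-45 with 309. The ascaroside receptor genes srg-36 and srg-37 had 0 and 14 counts in all, and srx-43 and srx-44, also ascaroside receptors, had 36 and 43. Of the pheromone receptor pair of the ASK neurons, srbc-64 had 1 count and srbc-66 had 82. The gene sra-6, used as a marker of the ASH and PVQ neurons, had 73 counts: 5 and 10 in the E35 and E36 libraries of wild type non-AMsh, 40 and 9 in the E30 and E35 libraries of che-2 AMsh and 9 in che-2 non-AMsh E36. The AWC receptor srsx-3 had 206 counts, with 2.78 CPM in wild type non-AMsh E35 and 6.13 CPM in che-2 AMsh E35 as its highest levels. The ASK gene srg-2 had 160 counts, with 2.14 CPM in wild type AMsh E35 and 2.17 CPM in che-2 AMsh E36 as its highest levels. Summed over the 25 genes, levels were 15.2 to 54.1 CPM in wild type AMsh, 25.1 to 33.1 CPM in wild type non-AMsh, 14.1 to 22.3 CPM in che-2 AMsh and 12.3 to 24.4 CPM in che-2 non-AMsh. The fractions overlapped in both genotypes. The sum rested mostly on srv-1, an exon of which overlaps zak-1 on the opposite strand. In wild type AMsh E30, where the sum was 54.1 CPM, 3 of the 25 genes had a count.

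Genes of receptor signalling and of receptor trafficking were measured beside the chemoreceptors. Of 45 genes of chemoreceptor signalling and trafficking, among them G protein subunits, the channel genes tax-2, tax-4, osm-9 and ocr-2 and the trafficking gene odr-4, edgeR tested 43 and called 0 in any of the 8 comparisons, with 0 to 4 at an unadjusted p under 0.05. DESeq2 called 1, pde-5, between genotypes in AMsh. Their summed level was 643 to 680 CPM in wild type AMsh, 608 to 676 CPM in wild type non-AMsh, 473 to 799 CPM in che-2 AMsh and 463 to 521 CPM in che-2 non-AMsh. The non-AMsh genotypes did not overlap in this sum. The median gene of the list had 1.03 to 3.99 CPM in a library, so the most abundant genes of the list carried most of the sum.

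All 191 members were annotated as protein coding, and they lay on every chromosome. Chromosome V held 108 of them (56.5%), against 63.3% of the 713 family genes and 16.8% of all genes in the table. Of the family genes on chromosome V 23.9% were members, against 52.4% of 21 on chromosome I and 50% of 12 on chromosome X. Members with starts within 20 kb of another member formed 38 clusters of 2 to 5 genes. The members srt-28, srt-27 and srg-56 form a cluster on chromosome V, yet srt-28 was seen mainly in non-AMsh libraries, srt-27 in wild type AMsh E30 alone and srg-56 mainly in wild type non-AMsh and che-2 AMsh E35. On chromosome II srb-16 lies beside srb-5 and srb-3, and srb-16 had 15.1 CPM in wild type AMsh E30 and at most 4.52 CPM elsewhere. Within the spans of the deposited table, exons of 31 members overlap an exon of another gene. Among these are sra-10 with ptr-8, sre-23 with nol-16 and srab-14 with spi-1, each on the opposite strand. On the same strand srw-12 overlaps srw-11. For these pairs, reads in the shared bases cannot be assigned to either of the 2 genes, and the length of the overlaps was not measured. The number 31 is a lower bound, since srw-11 and srg-5 were not counted although srw-12 and srg-6 overlap them.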

How the data were processed

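RNA of 12 sorted samples was amplified and sequenced. Per the submitters' processing notes, the authors used CASAVA 1.8.2, FastQC, STAR 2.3 and featureCounts with the WBcel235 build. The authors deposited one table of raw read counts, whole numbers with no normalisation, with a further deposited column with the summed exon length of each gene in bases. Strand setting, handling of multiply mapped reads and annotation release are not given in the sources used here, so counts of near-identical family members are uncertain. Titles of the E36 libraries, wild type non-AMsh excepted, carry the replicate number of E30, and libraries were assigned by their E codes in the titles and the file headers. Nothing says how repeated cultures were spaced, so p-values measure the spread between these samples. No sequences are printed.

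Gene symbols came from the reference names (43623 of 46726 genes matched) and overlaps from Ensembl release 115. Overlaps were sought within each member's span in the deposited table, so some can be missed. Counts were scaled with TMM, filtered with filterByExpr (16690 genes kept) and fitted in edgeR 4.0.16 (R 4.3.3, limma 3.58.1) with 4 group means (8 residual degrees of freedom, spread between replicates 0.732 as a biological coefficient of variation). Cultures were tested in a fit of groups plus culture within genotype (4 residual degrees of freedom). P-values of the quasi-likelihood test are 2-sided, adjusted by Benjamini-Hochberg over all genes tested, at 0.05. Members with all counts 0 in a group have folds as lower bounds (3 counts over the group), and ratios with 1 to 3 counts have 95% exact intervals. Bounds and intervals cover counting error only, since PCR copies cannot be told from separate RNA molecules here. The scripts were tested on simulated data. Python 3.11.15, pandas 2.3.3, scipy and matplotlib served for tables and figures. Alternatives were DESeq2 1.42.0, other scalings, no filter, blocks and left-out libraries.

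The AMsh and non-AMsh cells of a culture were sorted from the same animals and were taken as paired: deviations from group means correlated at 0.203 to 0.273 (wild type) and 0.159 to 0.503 (che-2) within cultures, and at most 0.0605 between them. The members and gene lists were chosen with earlier results of these data known. Named genes were the 12 members highest in CPM per kb, the member with the most counts in each family, the 3 smallest p values per comparison, receptors of known cell or ligand, genes next to the threshold and clustered members. Members whose groups did not overlap, that were seen in 1 library or in all 12, or that DESeq2 called were named after their values were seen.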

Additional observations from a re-analysis of the deposited data

How the results depend on the processing

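Calls of members stayed at 0 in 111 of 121 values under the alternatives. With DESeq2 the members called were 5 between the fractions of wild type, 3 between those of che-2, 4 with the genotypes averaged, 9 between genotypes in AMsh, 5 between genotypes in non-AMsh, 2 for the difference between these changes, 1 between the cultures of wild type and 3 between those of che-2, against 0.992%, 1.06%, 1.5%, 5.72%, 4.79%, 0.0207%, 12% and 12.2% of all genes in the same order. These were 15 different members, 13 of them kept by filterByExpr. DESeq2's calls of srx-114, srbc-51 and srw-97 concern genes with 85.2%, 74.1% and 86.4% of their counts in 1 library. With no filter on low counts edgeR called 1 member, srw-85, between genotypes in AMsh. Without wild type AMsh E30 and che-2 AMsh E35, chosen after seeing the data, it called 1, srw-85, between genotypes in non-AMsh (adjusted p = 0.0427), and the difference between the genotype changes of srx-68 turned from 2.11 to −0.16 on the log2 scale. The causes were not tested. The replicate block, by culture or by code, gave 0 members called in every comparison in which it was run. Libraries of the same code in the 2 genotypes correlated at −0.00127 to 0.0395 in AMsh and at 0.0769 to 0.201 in non-AMsh, against −0.171 to 0.0331 for other codes in non-AMsh. Not every pair exceeded 0.1, so the codes were not taken to pair the genotypes, although the non-AMsh values hint at it. Leaving out each library in turn gave 0 to 0 calls. Of 686 values of single genes 668 kept direction and side of the threshold, 17 newly passed it, 15 of them with DESeq2, and 1 changed sign. A threshold of 20 counts gave 328 members and one of 100 gave 111. Counts were low, with 80 members under 100 counts in all.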
